A study of Homo sapiens with 4 samples.

Results

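The S100 genes described here are S100A1, S100A2, S100A3, S100A4, S100A6, S100A10, S100A11, S100A13 and S100A16, chosen by symbol from the deposited gene table. They are 9 of its 57820 rows, no symbol was listed more than once, and all 9 were among the 14616 genes with enough counts to be tested. The set was proposed with results of this comparison known, so the members' differences between the groups are given as a description, without p-values. U87 is an established human glioma cell line. Its cells carried either a non-targeting hairpin (shNT, 2 libraries, labelled control) or a hairpin labelled shGlud1 (2 libraries). GLUD1 encodes glutamate dehydrogenase 1, the mitochondrial enzyme that converts glutamate to alpha-ketoglutarate. Cells of all 4 libraries grew with 10% bovine calf serum and then spent 6 h in low glucose, so the control cells had the low glucose too. The labels do not say whether the hairpin cells were pools or single clones, nor whether the replicates were separate cultures, so the spread between replicates may be technical. Because these are bulk libraries, fewer expressing cells and less RNA per cell cannot be told apart.

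S100 proteins are small calcium-binding proteins that pair into dimers, each chain carrying a pair of EF-hand loops. When calcium binds, most of them open a hydrophobic surface and take hold of target proteins, among them annexins and cytoskeletal proteins. S100A10 is the exception that does not need calcium: it is held in an open form and pairs with annexin A2 at the plasma membrane. Some family members are also released from cells and act on receptors such as RAGE, the product of AGER. In tumours, glioma included, S100A4 and S100A6 are studied for their links to migration and invasion. The family's genes lie mostly in a cluster on the long arm of chromosome 1.

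The libraries held 16546849 to 18537314 counts. Expected counts of GLUD1 were 1065.81 and 1170.81 in shNT and 680.35 and 1025.82 in shGlud1. In TMM-scaled CPM, the counts of a gene relative to the scaled library size, it fell in shGlud1 by 0.98 on the log2 scale (SE 0.13, adjusted p = 1.26e-12 in edgeR's quasi-likelihood test). GLUD1 was at 78.1 and 76.5 CPM in shNT and at 34 and 44.5 CPM in shGlud1. By total counts its log2 difference was -0.45. The targeted gene thus went with the labels but was far from lost. TMM scaling rests on most genes not shifting together, and its factors differed between groups, at 0.826 and 0.845 for shNT and 1.15 and 1.24 for shGlud1. Of the cultured-glioma markers, 6 of 7 were tested, 3 of them rose (VIM, NES and FN1) and their summed level was 3437 to 3649 CPM in shNT and 5713 to 6248 CPM in shGlud1. The astrocyte marker GFAP had only 2 to 6 counts per library. Of 14 markers of other cell types 13 were in the table, 2 were at 0 (MLANA among them), and 6 were tested. CD68 (-0.42), SYP (-1.51) and CD14 (-3.20) fell and MBP (1.10) and RBFOX3 (1.80) rose, CD14 and RBFOX3 having met the count filter in 1 group only. Their summed level was 371 to 415 CPM in shNT and 290 to 303 CPM in shGlud1, of which CD68 alone gave 398 and 357 CPM in shNT and 290 and 275 CPM in shGlud1. The immune marker PTPRC had at most 1 count in a library.

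Most of the S100 genes were lower in the shGlud1 cells. A gene is called here when its adjusted p in the fit of all genes was under 0.05. On that rule 7 of the 9 members fell (S100A1, S100A2, S100A3, S100A4, S100A6, S100A13 and S100A16), none rose, and S100A10 and S100A11 were not called. The comparison called 61.0% of all tested genes, 29.1% as lower and 31.9% as higher. The median log2 difference, shGlud1 minus shNT, was -0.86 over the members and 0.06 over all tested genes. In TMM-scaled CPM both shGlud1 libraries lay below both shNT libraries for 8 members, as they did for 38.2% of all tested genes, and above them for S100A10, as for 42.8% of all tested genes. Without shGlud1 replicate 2, 6 members were called lower, against 25.1% of all genes, 1 higher (S100A10), against 26.2%, and the members' median was -0.66.

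The split depended on the scaling. When the libraries were scaled by their total counts alone, the median of all tested genes moved from 0.06 to 0.57. All genes then split into 51.9% called higher and 13.7% called lower. With that scaling 5 members were called lower (S100A2, S100A4, S100A6, S100A13 and S100A16) and 2 higher (S100A10 and S100A11). Their median was -0.35, still below that of all genes. In CPM from total counts both shGlud1 libraries lay below both shNT libraries for 5 members (20.7% of all tested genes) and above them for 2 (62.7%), and the groups overlapped for S100A1 and S100A3.

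**Figure D1:**
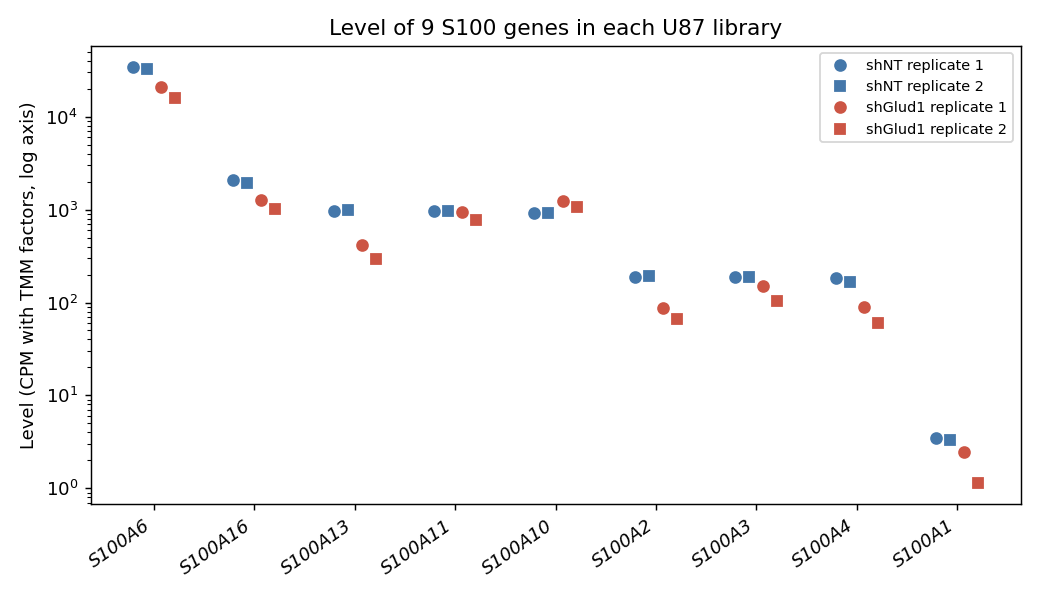
Expression of the 9 S100 genes in TMM-scaled CPM on a log axis, 1 point for each library, with shNT in blue, shGlud1 in red, replicate 1 as circles and replicate 2 as squares. S100A10 is the one gene whose shGlud1 points lie above both shNT points, and for every gene shGlud1 replicate 2 lies below replicate 1.

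S100A6, also called calcyclin, is known for binding the co-chaperone partner CACYBP and several annexins. It had the largest share of counts of any gene of the table in every library, a share that is not corrected for length. It held 2.85% of all counts in shNT replicate 1 (Wilson 95% interval 2.844 to 2.86) and 2.76% in replicate 2 (2.755 to 2.77). In shGlud1 it held 2.43% in replicate 1 (2.425 to 2.44) and 1.97% in replicate 2 (1.961 to 1.973). These intervals cover counting error only, since copies made by PCR are not independent molecules. The 2 groups did not overlap, and the shGlud1 libraries stood further from each other than the shNT libraries did. The group means were 2.80% ± 0.0636 (SD, n = 2) in shNT and 2.20% ± 0.325 (SD, n = 2) in shGlud1, a ratio of 0.78. The gene next in rank was RPLP0, a ribosomal stalk protein, in shNT, at 1.09% and 1.02%, and the mitochondrial ribosomal RNA MT-RNR2 in shGlud1, at 1.15% and 0.871%.

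The drop in the members' joint share was that of S100A6, because moves of the other 8 balanced out in their sum. All 9 together held 3.31% and 3.21% of counts in shNT and 2.91% and 2.39% in shGlud1. The other 8 held 0.455% and 0.452% in shNT and 0.483% and 0.422% in shGlud1, so the groups overlapped for their sum. Within that sum S100A2, S100A4, S100A13 and S100A16 lost share and S100A10 and S100A11 gained it. In CPM of total counts S100A13 went from 803 and 827 in shNT to 480 and 365 in shGlud1. S100A10 went from 755 and 783 to 1439 and 1319. S100A6 made up 86.2% and 86% of the members' counts in shNT and 83.4% and 82.3% in shGlud1.

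**Figure D2:**
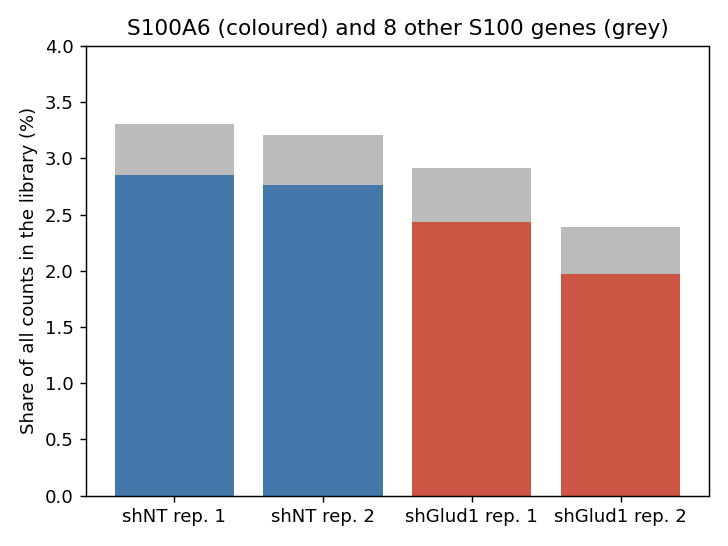
Share of all counts, in percent, held by S100A6 (coloured bars from 0, blue for shNT and red for shGlud1) with the other 8 members together stacked on top in grey, for each of the 4 libraries. S100A6 goes from 2.85% and 2.76% in shNT to 2.43% and 1.97% in shGlud1, while the sum of the other 8 stays between 0.422% and 0.483%.

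On the TMM scale S100A6 was at 34570 and 32714 CPM in shNT and at 21159 and 15823 CPM in shGlud1. The means were 33642 ± 1313 and 18491 ± 3773 CPM (SD, n = 2 each), and the log2 difference was -0.86 (SE 0.20). By this scale shGlud1 had 0.55 of the shNT level, against the 0.78 of the plain share above. It was no longer called without shNT replicate 1, when the difference was -0.82. The gene lies at chr1:153534599-153536244 on the minus strand (GRCh38, GENCODE 29). Since it led the whole table, the 250 bases before its RefSeq start (GRCh38.p14, minus strand, chr1:153535992-153536241) are shown in lower case, as none of the motifs searched further down was in it.
S100A6: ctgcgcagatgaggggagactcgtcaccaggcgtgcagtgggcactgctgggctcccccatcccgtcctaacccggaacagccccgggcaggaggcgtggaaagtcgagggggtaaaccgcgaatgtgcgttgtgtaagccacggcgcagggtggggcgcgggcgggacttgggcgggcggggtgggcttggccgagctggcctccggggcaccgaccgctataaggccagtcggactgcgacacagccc

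S100A2, S100A4 and S100A13 had the lowest log2 differences of the 9. S100A13 helps to export growth factors that lack a signal peptide, such as FGF1. It had 974 and 980 CPM in shNT and 418 and 294 CPM in shGlud1, a log2 difference of -1.46 (SE 0.15), or 0.36 of the shNT level. S100A2 is a mostly nuclear member. Its levels were 188 and 193 CPM in shNT and 87.3 and 66.4 CPM in shGlud1, a log2 difference of -1.31 (SE 0.13). S100A4, which binds non-muscle myosin and is a mesenchymal marker, had 182 and 167 CPM in shNT and 88.6 and 60.4 CPM in shGlud1, a log2 difference of -1.23 (SE 0.13). The groups did not overlap for any of these genes, and the gap between them was wider than the spread within either.

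S100A16, S100A3 and S100A1 were also called lower, each by less than S100A13, S100A2 and S100A4. S100A16, a widely expressed member studied in fat cells and tumours, had 2097 and 1929 CPM in shNT and 1265 and 1029 CPM in shGlud1 (log2 difference -0.81, SE 0.16). S100A3, a cysteine-rich member best known from the hair cuticle, had 187 and 189 CPM in shNT and 149 and 105 CPM in shGlud1 (log2 difference -0.57, SE 0.13). Its raw counts did not separate the groups: they were 2550 and 2895 in shNT and 2978 and 2409 in shGlud1. S100A1, a regulator of calcium handling in muscle, was nearly silent, with 48 and 50.47 expected counts in shNT and 49.12 and 25.58 in shGlud1. Its log2 difference was -0.94 (SE 0.34), and without shGlud1 replicate 2 it was -0.46 and not called. Without shNT replicate 1 it was -0.88 and not called either, nor was it called with DESeq2, where it was -0.98.

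S100A10 and S100A11, which bind annexins A2 and A1 at membranes, were not called. S100A10 had 12489 and 14182 expected counts in shNT and 25045 and 24453 in shGlud1. That is 915 and 927 CPM against 1252 and 1061 CPM, a log2 difference of 0.33 (SE 0.16) with both shGlud1 libraries above both shNT libraries. It was called higher, at 0.45, once shGlud1 replicate 2 was left out. S100A11 had 967 and 959 CPM in shNT and 937 and 779 CPM in shGlud1, a log2 difference of -0.17 (SE 0.15). Its shGlud1 libraries lay below the shNT libraries on the TMM scale and above them by total counts, where the difference was 0.35. It was called lower, at -0.32, when shGlud1 replicate 1 was left out.

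The shGlud1 replicates were less alike than the shNT replicates for these genes. In CPM, shNT replicate 2 was 0.92 to 1.03 of replicate 1 over the 9 members. shGlud1 replicate 2 was 0.46 (S100A1) to 0.85 (S100A10) of replicate 1. It was the lower one for 9 of 9 members, as it was for 48.8% of all tested genes. GLUD1 went the other way, at 34 CPM in shGlud1 replicate 1 and 44.5 CPM in replicate 2. Whether the members' levels go with the GLUD1 level was not tested.

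All 9 members have short transcripts, and across all genes the difference between the groups went with transcript length. The longest annotated transcripts of the members run from 594 nt (S100A11) to 2621 nt (S100A1), and the median over tested genes was 3374.5 nt. Over tested genes, the log2 difference and the longest transcript had a Spearman correlation of 0.447, a description over genes that are not independent and share the same 4 libraries. In 20 bins of equal size by length, the median log2 difference was -0.87 among the 715 genes of 78 to 796 nt and 0.69 among the 714 genes of 9361 to 91667 nt. The same length went with the ratio of shGlud1 replicate 2 to replicate 1 (0.332) and hardly with that of the shNT pair (0.0364). How much of the members' differences goes with length, fragment size or RNA quality was not tested.

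**Figure D3:**
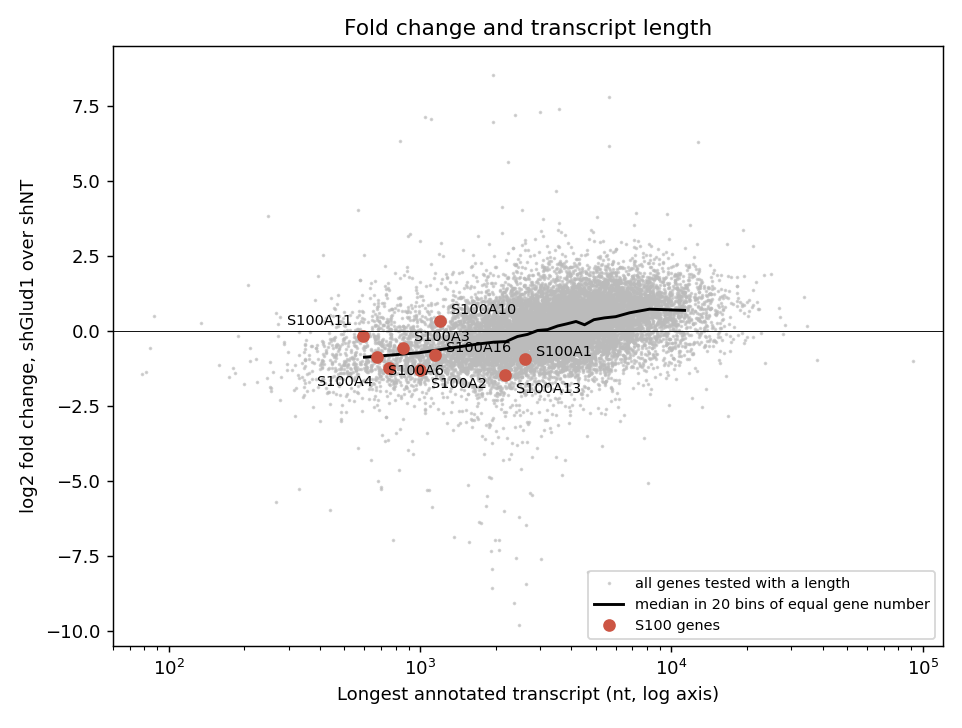
Log2 difference between shGlud1 and shNT against the longest annotated transcript in nt (log axis) for all tested genes with a length, with the median of each of 20 length bins as a line and the 9 members as labelled points. S100A6, S100A3 and S100A16 lie near the line, S100A13 and S100A2 below it, and S100A10 and S100A11 above it.

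With the length trend over all genes removed, the members parted. Using the longest transcript, 4 members were called lower, against 28.8% of all genes, and 2 higher, against 26.9%. S100A13 (-1.21), S100A2 (-0.70), S100A4 (-0.54) and S100A1 (-0.84) stayed lower. For S100A1 the longest transcript is 2621 nt and the principal one 594 nt, and for S100A13 they are 2184 and 686 nt. Their values here thus depend on the transcript chosen. S100A6 (-0.13), S100A16 (-0.24) and S100A3 (0.08) were no longer called. S100A10 (0.89) and S100A11 (0.61) were called higher. Using the principal transcript, a choice added after seeing the data, 2 members were lower (S100A2 at -0.61 and S100A13 at -0.55), against 30.2% of all genes, and 2 higher (S100A10 at 0.91 and S100A11 at 0.82), against 25.1%. S100A6 was then at 0.05, S100A1 at 0.03 and S100A4 at -0.26, and none of these was called. Using the median transcript, the values stayed near the unadjusted ones, with 7 lower, against 29.4% of all genes, and 1 higher (S100A10 at 0.55), against 28.9%. S100A2 and S100A13 were called lower under every scaling, filter, tool, left-out library and length removal that was run.

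**Figure D4:**
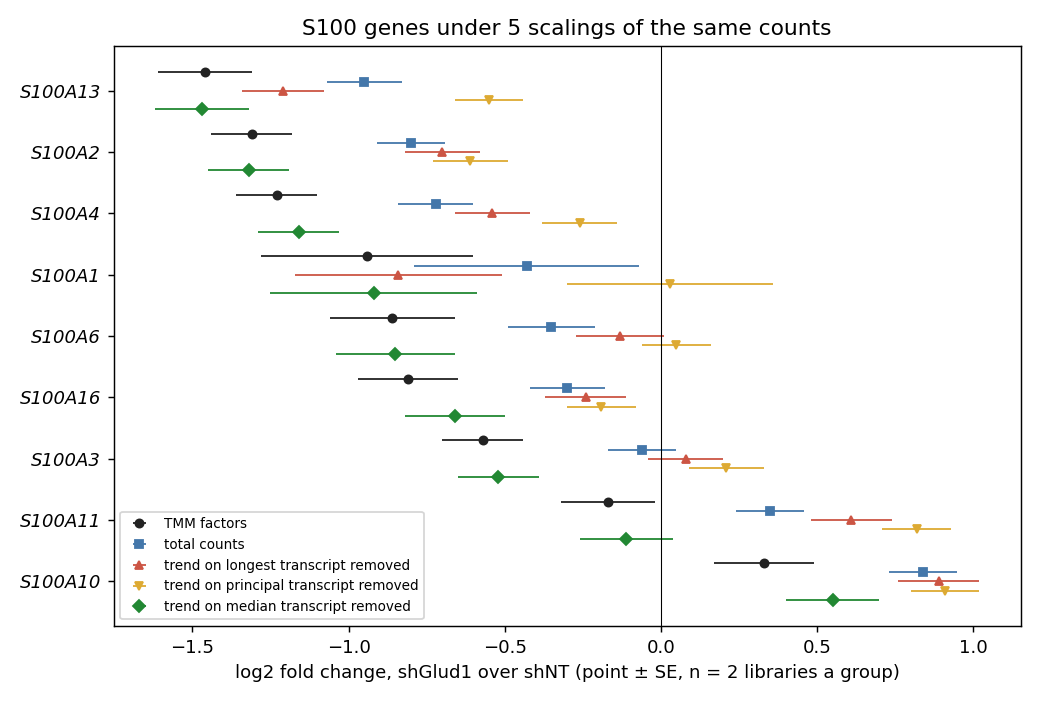
Log2 difference between shGlud1 and shNT for each of the 9 S100 genes under TMM scaling, total-count scaling and removal of the length trend by the longest, the median or the principal transcript, each as a point with its SE (2 libraries a group). S100A2 and S100A13 are below 0 under all of these, S100A10 is above 0, and S100A6 runs from -0.86 to 0.05.

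Shares of counts are not corrected for length, so the members' levels were also set side by side as CPM per kilobase of longest transcript. In shNT the order was S100A6 (49988 ± 1951), S100A16 (1756 ± 104), S100A11 (1621 ± 8.57), S100A10 (766 ± 7.04), S100A13 (447 ± 2), S100A4 (231 ± 14.2), S100A3 (220 ± 1.98), S100A2 (191 ± 3.76) and S100A1 (1.29 ± 0.067), each as mean and SD of 2 libraries. S100A6 was thus 28.5 times the next member, and S100A4 and S100A3 differed by less than the SD of S100A4. In shGlud1 S100A6 still led with 27475 ± 5606, followed by S100A11 (1444 ± 188), S100A16 (1001 ± 146) and S100A10 (962 ± 112). The last of these pairs, S100A16 and S100A10, overlapped in shGlud1, as did S100A13 (163 ± 40.1) with S100A3 (148 ± 36.6) and S100A4 (98.7 ± 26.4) with S100A2 (77 ± 14.8). The places behind S100A6 depend on which length is used; with coding length in place of the longest transcript, S100A6 was 19.1 times the next member in shNT.

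Reads of some members could be shared with overlapping genes, because the TruSeq V2 kit does not mark strand. S100A1, on the plus strand, shares 235 exon nt with S100A13, on the minus strand, which is 7.76% of the exon length of S100A1. S100A13 had 13289.74 expected counts in shNT replicate 1, against 48 for S100A1, so the S100A1 values are uncertain. A transcript named AL162258.1 (ENSG00000271853) runs on the strand of S100A13 and shares 536 nt with it, or 24.2% of the exon length of S100A13. AL162258.1 itself has a longest transcript of only 753 nt, so its values are uncertain too. It had 109.99 and 97.06 expected counts in shNT and 33.82 and 23.97 in shGlud1 and fell by 2.40 (SE 0.30, edgeR adjusted p = 7.43e-15). S100A3 and S100A4 overlap as genes but share no exon sequence, and the antisense BX470102.1 shares 23 nt with S100A6 and had 12 to 22 counts per library.

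The other S100 genes and the related fused-type genes of the cluster were mostly silent. Of these 19 genes, 4 were at 0 in every library (S100A7A, S100A7L2, S100G and TCHHL1) and 9 were tested. Of these 9, 7 met the count filter in 1 group only and are given by their counts alone, and 2, S100A9 and S100A8, met it in both. S100A9, a calprotectin subunit better known from myeloid cells, had 39 and 40 counts in shNT and 214 and 165 in shGlud1. It rose by 1.70 (SE 0.26, edgeR adjusted p = 2.07e-10), and with the longest-transcript trend removed it was at 2.48. Its partner S100A8, named after its values were seen, went from 14 and 23 to 62 and 43 counts and rose by 0.95 (SE 0.40, edgeR adjusted p = 0.029). The S100A8 call was lost with DESeq2 (0.91, adjusted p = 0.162), without shNT replicate 1 (0.71, adjusted p = 0.206) and without shGlud1 replicate 1 (0.54, adjusted p = 0.421). These are low levels: S100A9 reached 8.93 ± 2.5 CPM (SD, n = 2) in shGlud1.

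S100P, a placental member often raised in carcinomas, had 42 and 21 counts in shNT and 7 and 4 in shGlud1. S100A14 had 19 and 24 counts in shNT and 3 and 16 in shGlud1. Both passed the filter only through shNT. S100A5, S100Z, RPTN, HRNR and FLG passed only through shGlud1, and the last 3 of these had at most 1 count in a shNT library and 11 to 24 in a shGlud1 library. The glial marker S100B had 2 counts in 1 shNT library and none in the others, which allows no statement about it at this depth.

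The partner lists show what moved beside the members. They were written from general knowledge, with earlier results of these data known. Their counts stand beside 31.9% of all tested genes called higher and 29.1% called lower. With total-count scaling these shares were 51.9% and 13.7%. Among annexins and the AHNAK scaffolds, 13 of 15 were tested, 4 rose, 4 fell and the median was -0.02. Without shNT replicate 1, 2 rose and 2 fell, and with total-count scaling 9 rose and 2 fell. ANXA2, the partner of S100A10, was at 2456 and 2565 CPM in shNT and 3835 and 3837 CPM in shGlud1 and rose by 0.61 (SE 0.17, edgeR adjusted p = 0.000849). AHNAK, the giant scaffold that binds the S100A10 and annexin A2 complex, rose by 0.98 (SE 0.14, adjusted p = 6.49e-11). AHNAK2 rose by 1.81 (SE 0.14, adjusted p = 1.23e-36). So ANXA2 and both AHNAK genes were called higher beside an S100A10 that was higher in both shGlud1 libraries. With the longest-transcript trend removed AHNAK, whose longest transcript is 18787 nt, was at 0.26 and not called (adjusted p = 0.0576), while it was called at 0.98 with the median-transcript trend removed and at 1.68 with the principal-transcript trend removed. ANXA2 (0.47) and AHNAK2 (1.10) were called with the longest-transcript trend removed. The ANXA2 call was lost without shNT replicate 1 (adjusted p = 0.113) and without shNT replicate 2 (adjusted p = 0.0704).

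ANXA1, the partner of S100A11, went the other way, from 1670 and 1720 CPM in shNT to 1136 and 1136 CPM in shGlud1 (fell by 0.58, SE 0.16, adjusted p = 0.000785 in edgeR), and by total counts its difference was -0.06. Its call was lost without shNT replicate 1 (adjusted p = 0.0521) and without shNT replicate 2 (adjusted p = 0.067). ANXA8L1 fell by 1.77, but it has a near-identical copy, ANXA8, and how the authors split shared reads is uncertain. ANXA10 had 20 and 23 counts in shNT and 5 and 2 in shGlud1, and passed the filter only through shNT; of the 12 genes that met it in both groups, 4 rose and 3 fell.

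Of the cytoskeletal partners, 12 of 15 were tested, 7 rose, 2 fell and the median was 0.53. Of all tested genes 31.9% rose and 29.1% fell. IQGAP1, a scaffold that binds S100B and S100P, went from 35.1 ± 3.28 to 116 ± 13 CPM (SD, n = 2 each) and rose by 1.73 (edgeR adjusted p = 2.63e-35). CAPZA1, a subunit of the actin capping protein, rose by 1.55 (adjusted p = 5.04e-29), and its sister CAPZA2 fell by 1.25 (adjusted p = 1.15e-19). PPFIBP1 (liprin beta 1), a binding partner of S100A4, rose by 1.66 (adjusted p = 4.64e-10). TPM2, a tropomyosin, fell by 1.13 (adjusted p = 4.82e-07). The S100A4 partner PPFIBP1 and S100A4 itself thus moved in opposite directions, but their longest transcripts also differ, at 6001 and 755 nt. With the longest-transcript trend removed PPFIBP1 was at 1.18 and S100A4 at -0.54. With the principal-transcript trend removed they were at 1.09 and -0.26, and S100A4 was not called. IQGAP1 was at 1.14, CAPZA1 at 1.53, CAPZA2 at -1.63 and TPM2 at -0.69 with the longest-transcript trend removed.

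Of the co-chaperone and ubiquitin-pathway partners all 12 were tested, 7 fell, 4 rose and the median was -0.53. Of all tested genes 29.1% fell and 31.9% rose, and with total-count scaling 13.7% fell and 51.9% rose. With total-count scaling 3 fell and 5 rose, and without shNT replicate 1 the 4 that rose became 2. CACYBP, the calcyclin-binding protein named after S100A6, went from 269 and 289 CPM in shNT to 109 and 117 CPM in shGlud1 (fell by 1.30, SE 0.14, edgeR adjusted p = 3.68e-20). Its difference was -1.26, -1.20 and -1.36 with the longest-, median- and principal-transcript trend removed. Its longest transcript of 2835 nt falls in a length bin whose median difference was 0.02. How far the CACYBP difference goes with length was not tested. FKBP4, an immunophilin that works with HSP90, fell by 1.45 (adjusted p = 9.51e-23). Those that rose by the lowest p were S100PBP, a binding protein of S100P (1.72), FKBP5 (1.67) and NCL, the nucleolar protein nucleolin (0.57), whose call was lost without shNT replicate 1 (0.52) and with the principal-transcript trend removed (0.21).

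Among 8 receptors and export partners 7 were tested, and 5 of them met the count filter in both groups. Of these 5, 3 fell and none rose, with a median of -0.95, while 29.1% of all tested genes fell and 31.9% rose. BSG (basigin), a receptor described for S100A9, went from 1912 ± 70.2 to 990 ± 80.9 CPM (SD, n = 2 each) and fell by 0.95 (edgeR adjusted p = 2.14e-08). FGF1 and IL1A, the proteins that S100A13 helps to leave the cell, fell by 1.29 (adjusted p = 4.56e-06) and 1.56 (adjusted p = 3.64e-10), and S100A13 itself was lower too. The innate receptor TLR4 had 9 and 24 counts in shNT and 70 and 138 in shGlud1. AGER, the RAGE receptor, had 4 and 7 expected counts in shNT and 19.57 and 27 in shGlud1. Both met the filter only through shGlud1, the group in which they were higher, and are given as counts only.

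Other small EF-hand proteins moved both ways: of 53 in the list 33 were tested, 10 rose, 13 fell and the median was -0.10. With total-count scaling 17 rose and 4 fell, and without either shNT library 6 rose and 7 fell. The calmodulin gene CALM3 (0.68, edgeR adjusted p = 1.42e-06) rose, as did the secretory-pathway protein CALU (1.45, adjusted p = 3.06e-22). RCN3 (-1.24), CIB1 (-1.16) and the light chain MYL6B (-1.01) fell. The EF-hand fold thus came with both directions, with a median near that of all genes. Of all tested genes 31.9% rose and 29.1% fell, and with total-count scaling 51.9% rose and 13.7% fell.

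Genes next to the members on chromosome 1 were also mixed. Within 200 kb of a member 19 other genes were tested, 7 rose and 5 fell, with a median of 0.31. Of all tested genes 31.9% rose and 29.1% fell, and with total-count scaling 51.9% rose and 13.7% fell. With the longest-transcript trend removed 28.8% of all tested genes fell. Of the 14 that met the count filter in both groups, 5 rose and 3 fell. With total-count scaling 12 rose and 4 fell, without shNT replicate 2 the 5 that fell became 3, and with the longest-transcript trend removed 2 fell. Within 100 kb 10 were tested, 1 rose and 5 fell, with a median of -0.70, and of the 7 that met the filter in both groups 1 rose and 3 fell. The closest were the overlapping BX470102.1 (not called, -0.71), AL162258.1, described above, and AL162258.2, then S100A5, 903 nt from S100A6, and S100A14, 1110 nt from S100A16. AL162258.2 had 24.27 and 38.06 expected counts in shNT and 18.03 and 9.78 in shGlud1. It met the filter only through shNT, as S100A14 did, and S100A5 (8 and 14 counts in shNT, 21 and 12 in shGlud1) only through shGlud1. Of others, named after their values were seen, CHTOP was at 0.04 (adjusted p = 0.8) at 1943 nt from S100A1, SNAPIN fell by 0.82 (edgeR adjusted p = 1.74e-09) and INTS3 rose by 0.96 (adjusted p = 4.15e-11). The SNAPIN call was lost with the longest-transcript (-0.26) or principal-transcript (-0.13) trend removed, and CHTOP was called higher at 0.56 by total counts.

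**Figure D5:**
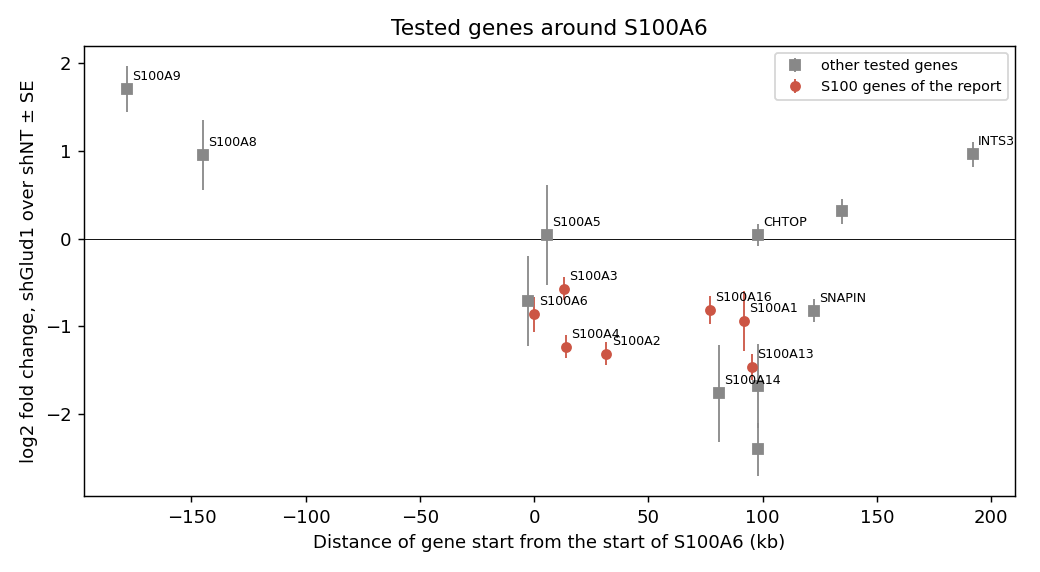
Log2 difference between shGlud1 and shNT for tested genes within 200 kb of S100A6, placed by distance from its start in kb, with members as red circles, other genes as grey squares and SE as bars. S100A10 and S100A11 lie further away and are not drawn. Members called lower sit beside genes near 0 such as CHTOP (0.04) and genes above 0 such as INTS3 (0.96).

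Promoters of the members were searched for the letters of 4 motifs on both strands. RefSeq (GRCh38.p14) gave 13 start sites for the 9 members, each with 250 bases before and 50 after the start. The AP-1 letters TGANTCA were found at 2 of the 13 start sites, 1 of S100A2 and that of S100A3, and in 7.71% of all 35116 promoters. The other start site of S100A2 had no match. The antioxidant response element letters TGACNNNGC were found at 2 start sites, 1 each of S100A13 and S100A16, and in 13.3% of all promoters. No start site held the heat shock element letters GAANNTTC (6.77% of all) or the E-box letters CACGTG (7.26%). The members that share the AP-1 letters are given as the 250 bases before the start, with the match in capitals, because one of them was called lower under every alternative and the other was not. They lie on the minus strand at chr1:153565845-153566094 for S100A2 and chr1:153549259-153549508 for S100A3. S100A10, at chr1:151993860-151994109 on the same strand, is added as the member that was higher in shGlud1.
S100A2: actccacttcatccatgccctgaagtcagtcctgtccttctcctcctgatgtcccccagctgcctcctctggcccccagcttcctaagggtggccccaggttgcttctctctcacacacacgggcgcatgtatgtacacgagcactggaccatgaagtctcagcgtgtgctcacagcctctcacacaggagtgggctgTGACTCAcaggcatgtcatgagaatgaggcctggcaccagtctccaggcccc
S100A3: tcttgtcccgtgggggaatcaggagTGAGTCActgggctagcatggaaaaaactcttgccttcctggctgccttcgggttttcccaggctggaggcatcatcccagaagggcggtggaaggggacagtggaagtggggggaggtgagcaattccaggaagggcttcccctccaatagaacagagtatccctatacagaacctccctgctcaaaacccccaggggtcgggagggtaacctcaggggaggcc
S100A10: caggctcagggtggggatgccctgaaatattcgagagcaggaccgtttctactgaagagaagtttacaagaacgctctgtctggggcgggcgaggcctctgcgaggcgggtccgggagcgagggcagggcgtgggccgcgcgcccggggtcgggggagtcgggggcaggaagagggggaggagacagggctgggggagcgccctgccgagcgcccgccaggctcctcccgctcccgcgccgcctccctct

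In S100A2 the match begins 52 bases before the start and in S100A3 it begins 225 bases before it. A match of letters is a description and not a binding site.

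The genes whose pattern over the 4 libraries was most like that of S100A6 were sought by the distance of their centred log2 CPM, over the 3225 genes that averaged 50 CPM or more. The 5 nearest were MRPS24, a mitochondrial ribosomal protein (distance 0.032), DTYMK, a thymidylate kinase (0.032), C9orf142 (0.0416), POLR2J, a subunit of RNA polymerase II (0.0448), and ELP6, a subunit of Elongator (0.0526). MRPS24, the nearest, had 409 and 395 CPM in shNT and 248 and 187 CPM in shGlud1. With only 4 libraries many genes share a pattern this closely. The longest transcripts of these 5 genes, in the order named, were 1727, 1232, 1077, 932 and 1401 nt. All lie below the median of 3374.5 nt over tested genes, and how far the likeness goes with length was not tested. S100A16 was the nearest member at rank 51, followed by S100A3 at rank 604 and S100A4 at rank 909, while S100A10 was at rank 2507. S100A1, with means of 3.39 CPM in shNT and 1.79 CPM in shGlud1, lay under 50 CPM and was not compared. Among the members compared, then, the profile of S100A6 was shared closely by S100A16 and not by S100A10.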

How the data were processed

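The gene table that the authors deposited holds expected counts, which are estimates, and 20.1% of its values above 0 were not whole. Per the labels' protocols, poly-A RNA was made into libraries with the TruSeq V2 kit and 12 cycles of PCR and read as pairs of 150 nt. The tool and the build named, per the submitters' processing notes, are Bowtie 0.12.2 and mm8, a mouse build, yet all 57820 rows carry human Ensembl IDs. The build behind the counts is therefore uncertain, and the counting program is not given in the sources used here.

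Expected counts were rounded. In edgeR 4.0.16 (R 4.3.3), genes were kept by filterByExpr with a minimum count of 10, scaled by TMM and compared by the robust quasi-likelihood test without a block, on 4 libraries. P-values were adjusted by Benjamini-Hochberg over all 14616 tested genes. SE is the absolute log2 difference divided by the square root of F. Lengths and positions come from GENCODE 29 (GRCh38), and 97.6% of tested genes had a longest transcript. Length trends were removed by lowess (span 0.3) over all genes. The steps were tested on simulated data with few changed genes, as many up as down, and on such data with a length trend added. That could not test the TMM scaling for libraries in which most genes are called.

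The members and lists were chosen with earlier results of these data known. Named genes are the members, GLUD1, up to 3 genes per list and direction by lowest p, the 5 tested neighbours closest to a member and the 5 genes most like S100A6. Any other was named after its values were seen, and a few genes that the rule names are not reported here. Alternatives were other scalings, DESeq2 1.42.0, limma-voom 3.58.1, other filters, a replicate block, each library left out and removed length trends.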

Additional observations from a re-analysis of the deposited data

How the results depend on the processing

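Members called higher (0 in the report) were 1 with upper-quartile factors, 1 with limma-voom, 1 without a filter on low counts, 1 with the median-transcript trend removed, and 2 with total counts, the longest-transcript trend removed, the same with the replicate block, or the principal-transcript trend removed. Of all genes, 32.9% were called higher with upper-quartile factors, 31.7% with limma-voom, 19.8% without the filter and 28.9% with the median trend removed. The share was 51.9% with total counts, 26.9% with the longest trend removed, 27.4% with the block too and 25.1% with the principal trend removed. Members called lower (7 in the report) were 4 with the longest trend removed, with or without the block, and 2 with the principal trend removed. Of all genes, 28.8%, 29.2% with the block and 30.2% were called lower in these settings. The members' median was -0.35 with total counts, -0.24 with the longest trend removed, with or without the block, and 0.03 with the principal trend removed. Leaving out each library gave a members' median of -1.10 to -0.66. Signs turned for S100A1 (0.03, principal), S100A3 (0.08 longest with or without the block, 0.21 principal), S100A6 (0.05, principal) and S100A11 (0.35 total counts, 0.61 longest with or without the block, 0.82 principal); the causes were not tested. Of the members' 144 values under alternatives, 113 kept direction and call, 12 lost the call, 10 gained one and 9 changed sign.

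Over all genes, total counts called 7592 (51.9%) higher and 2000 (13.7%) lower. They also gave 9 annexins and AHNAK genes higher and 2 lower, 3 co-chaperone partners lower, 4 receptors higher, and 17 EF-hand genes higher and 4 lower. The receptors had 1 higher with DESeq2. Other S100 genes had 2 higher with a filter of 1 CPM in 2 libraries, and 1 lower with the longest trend removed, with or without the block, or the principal trend removed. The principal trend removed left 6 EF-hand genes lower. Of the tested genes, 7 of 9 other S100 genes and 2 of 7 receptors met the report's count filter in 1 group only. The direction of their calls was thus largely set by the filter, here and with a library left out, and nothing is drawn from it. Leaving out each library gave 2 to 5 other S100 genes higher and 1 to 2 lower, 2 to 4 annexins higher and 2 to 4 lower, 2 to 4 co-chaperone partners higher, 1 receptor higher, and 6 to 10 EF-hand genes higher and 7 to 13 lower. Neighbours called higher were 1 in the 100 kb window and 12 with total counts, and leaving out each library gave 5 to 8. Neighbours called lower were 2 with the longest trend removed, with or without the block, 3 with the principal trend removed, and 3 to 5 with each library left out. S100A6 held 3.16% of counts in shNT without the top 20 genes and 3.37% with TMM scaling, against 1.85% in shGlud1 with TMM. In shNT it stood 24 times above the next member by median and 19.1 times by coding length. Of 715 values of 45 other named genes, 674 kept direction and call, 29 lost the call, 1 gained it and 11 changed sign, all of genes not called: BX470102.1 (0.13 with the longest trend removed, 0.11 with the block too), S100A5 (-0.01 with RLE factors, -0.05 with limma-voom, -0.55 to 0.48 with each library left out) and CHTOP (-0.01 with RLE factors, -0.01 with DESeq2, -0.20 with the median trend removed, -0.04 to 0.13 with each library left out). AL162258.2 met the count filter only through shNT, the group in which it was higher, so nothing is drawn from its calls.

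The replicate numbers share only a number: deviations of same-numbered libraries had a correlation of 0.0409. With the replicate block 9046 genes were called, 4745 higher and 4301 lower, and no member's call changed. Depth limits S100A1, S100A14, S100P and AGER, with at most 50.47 counts in a library. Where a library was left out, its arm had 1 sample, which was assumed to vary like the other arm.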
